A study of Homo sapiens with 24 samples.

Results

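Albumin, its fellow carrier proteins and the apolipoproteins are the bulk of what a hepatocyte secretes. The 10 genes described here are ALB, TTR, TF, SERPINA1, APOA1, APOA2, APOB, APOC3, APOE and APOH, found by gene name among the 63677 genes of the deposited table. They were followed through all 12 groups of a study of 3 lines from human liver tumours (SNU398, SNU475 and HepG2), with 4 treatments per line and 2 libraries per group (A and B). Cells received GSK-126, which inhibits the histone methyltransferase EZH2, at 500 nM, decitabine (5-Aza-CdR), which traps DNA methyltransferases, at 100 nM, both drugs (the combination), or the vehicle DPBS. Dosing was daily for 3 days, and total RNA depleted of ribosomal RNA was sequenced from cells taken on day 14 (HepG2, SNU398) or day 21 (SNU475). All 3 lines are labelled as wild type hepatocellular carcinoma, and each is a single tumour-derived line.

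Hepatocytes load lipid onto APOB to build very low density lipoprotein, and they release APOA1 and APOA2 as the protein frame of high density lipoprotein. APOC3, APOE and APOH then ride on these particles or bind phospholipid, while ALB, TTR and TF carry fatty acids, thyroid hormone and iron in plasma. Liver-enriched transcription factors, among them the HNF4, FOXA and C/EBP families, keep such genes on, and their loss is a mark of dedifferentiated liver tumours.

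In units of 1000000 reads, as used in RPKM (reads per kilobase of gene and per 1000000 reads), the libraries held 32.6 to 60.37, and 57.2% to 69.5% of these lay in genes. Levels below are RPKM scaled per library, so they can be set side by side between genes. All 10 members passed the filter on low values (0.5 RPKM in at least 2 libraries), which HepG2 alone was enough to meet. Changes are log2 differences from limma, called at an adjusted p under 0.05. A fit of all 24 libraries was the main test, and a fit of the 8 HepG2 libraries alone stands beside it. The sources do not say whether libraries A and B came from separate cultures, so p-values may measure technical spread only.

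Upstream sequence was matched in RefSeq (GRCh38.p14) for 6 of the 10 members, at 10 annotated starts. The stretches of 250 bases before the start of ALB and APOH are shown because these genes followed each other most closely in HepG2, and that of APOE because it alone was called in all 3 lines. CG dinucleotides, the sites that DNA methyltransferases modify, are in capitals. ALB is read from the + strand of chr4:73404037-73404286, APOH from the - strand of chr17:66229416-66229665 and APOE, at the first of its 3 listed starts, from the + strand of chr19:44905546-44905795.
ALB: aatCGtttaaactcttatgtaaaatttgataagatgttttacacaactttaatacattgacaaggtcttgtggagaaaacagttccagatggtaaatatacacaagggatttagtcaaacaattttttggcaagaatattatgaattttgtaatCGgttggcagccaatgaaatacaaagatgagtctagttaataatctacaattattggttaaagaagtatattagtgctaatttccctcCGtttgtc
APOH: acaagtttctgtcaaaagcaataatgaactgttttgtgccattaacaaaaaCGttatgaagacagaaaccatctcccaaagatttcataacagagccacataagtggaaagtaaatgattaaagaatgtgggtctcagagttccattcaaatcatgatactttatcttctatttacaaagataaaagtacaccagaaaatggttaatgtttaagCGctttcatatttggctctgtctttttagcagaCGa
APOE: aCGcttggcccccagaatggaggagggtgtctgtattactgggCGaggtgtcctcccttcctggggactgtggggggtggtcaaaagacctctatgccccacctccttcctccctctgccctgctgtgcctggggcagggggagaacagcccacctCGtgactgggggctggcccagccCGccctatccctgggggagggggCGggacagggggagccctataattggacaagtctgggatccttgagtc
ALB and APOH each had 3 CG dinucleotides in this window, and APOE had 5, against a median of 11 over the 35116 promoters of the table. The other APOE starts held 9 and 11. APOA2, an HDL protein gene, had 0, SERPINA1 6 and 11 at its 2 starts, and TF 34 and 17. TTR, APOA1, APOB and APOC3 are named only. The letters GTTAAT began 61 bases before the ALB start on the + strand, and lay 210 (- strand) and 49 (+ strand) bases before that of APOH. On either strand 6.2% of promoter windows held them. CCAAT, present in 32% of windows, lay 86 and 44 bases before the ALB start, 27 bases before the first APOE start and 202 before the third, and 99 before the second start of TF. GTTAAT was also 76 bases before the second SERPINA1 start. TGTTTAC, as in FOXA sites, was 42 bases before the APOA2 start (3% of windows). CAAAGTC, as in HNF4 sites (2.9% of windows), and TATAAA (10.7%) were in none of the 10 windows. All were searched on both strands, and no matches overlapped.

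In HepG2 the members took a sizeable share of all gene reads. They made up 4.02% and 4.14% of reads in genes with the combination, 6.38% and 6.39% with GSK-126, 6.73% and 6.96% with decitabine, and 6.32% and 6.42% with DPBS. ALB (ENSG00000163631, hg19 chromosome 4, 74262831 to 74287129) was the highest member in every HepG2 group. With DPBS the means ran in the order ALB 5473, APOA1 1442, SERPINA1 1224, APOH 1184, APOA2 1114, APOB 665, TF 646, APOE 264, APOC3 214 and TTR 62.5 scaled RPKM. No pair of neighbours in this order overlapped in their libraries, and the narrowest gaps were those of SERPINA1 over APOH and of APOB over TF.

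In HepG2 the members did not move as a block: ALB, TTR, TF, APOA2, APOB, APOC3 and APOH lay lower with the combination, SERPINA1, APOA1 and APOE higher. In the fit of 24 libraries the combination called 1 member higher, APOE, and 2 lower, APOC3 and TTR, while 66.5% of all 19377 tested genes were called (40.6% higher, 25.9% lower). Both lower calls were lost when either combination library or either DPBS library was left out, so that 1 member, APOE, was then called. In the fit of HepG2 alone it called 3 higher and 7 lower, against 62.6% of all genes (38.9% higher, 23.7% lower). The fits give the same log2 changes and differ in their error. For ALB the standard error was 1.39 over 24 libraries and 0.036 over the 8 of HepG2, and the SNU libraries that enter only the larger fit differed widely within groups. Called members were thus fewer, as a share, than called genes in the first fit and more in the second.

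**Figure D1:**
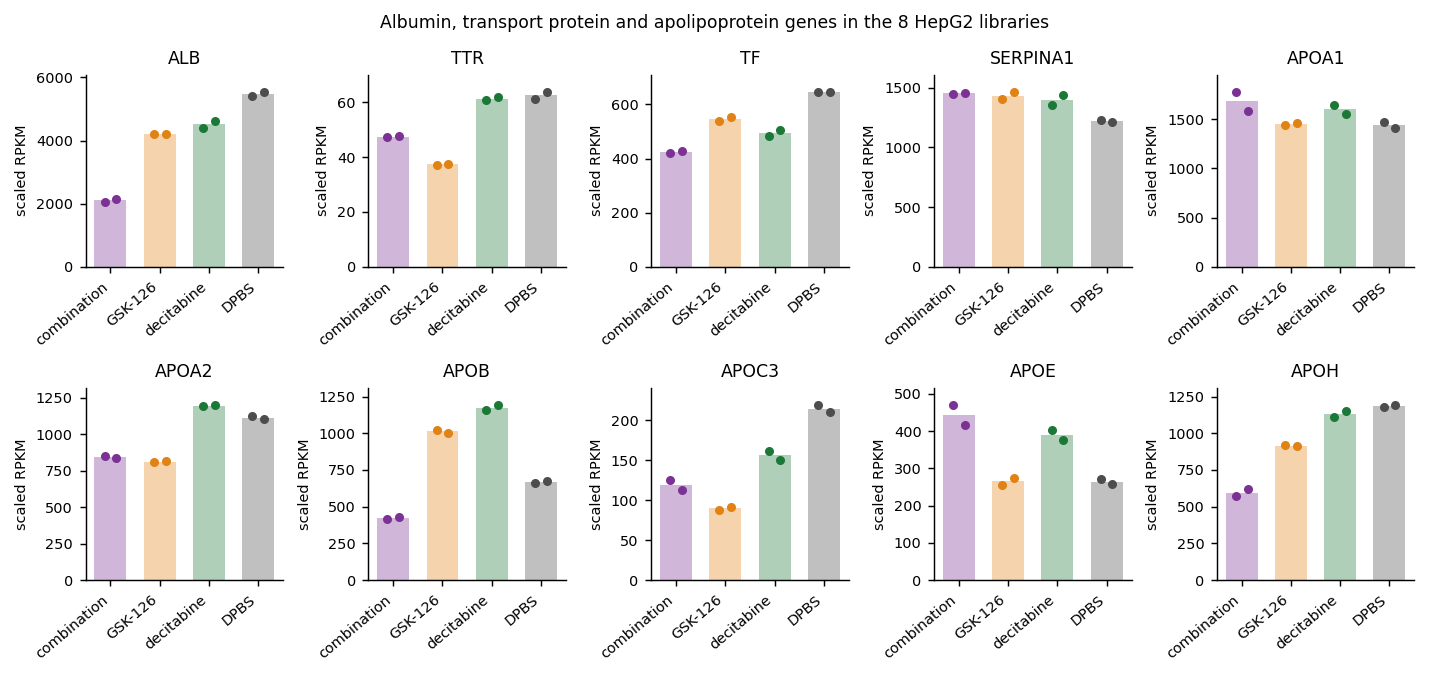
Scaled RPKM of the 10 genes in the 8 HepG2 libraries, with 1 panel per gene, points for libraries A and B and bars for their mean, each axis starting at 0. ALB is at 2048 and 2163 with the combination, against 5409 and 5537 with DPBS, and APOB stands above DPBS with either single drug and under it with both.

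ALB encodes the main plasma protein, a carrier of fatty acids and hormones. It had 2048 and 2163 scaled RPKM with the combination, 4204 and 4196 with GSK-126, 4397 and 4624 with decitabine, and 5409 and 5537 with DPBS. Both combination libraries lay under every other HepG2 library, both DPBS libraries above every other, and no treatment overlapped DPBS. The mean with the combination was 0.385 times that with DPBS, with GSK-126 0.767 times and with decitabine 0.824 times. The log2 change with the combination was -1.38 (adjusted p 2.9e-06 in limma's fit of HepG2 alone, 0.41 over 24 libraries, and between 2.9e-06 and 0.59 over all alternatives). With GSK-126 it was -0.38 (adjusted p 0.00037 in HepG2 alone, 0.91 over 24 libraries) and with decitabine -0.28 (0.0016 and 0.91). Quantile normalization, which gives each library the same set of values, put both single-drug changes of ALB at 0.00. A gene of unchanged rank gets the same value in every library there, so 0.00 does not measure the change in level. The combination change also exceeded the sum of the single changes, with an interaction of -0.72 (adjusted p 0.00017 in HepG2 alone, 0.81 over 24 libraries).

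AFP, the fetal counterpart of albumin, lies 9726 bases above ALB on the chromosome. It had 690 ± 16 scaled RPKM with the combination, 1892 ± 26 with GSK-126, 1944 ± 23 with decitabine and 2538 ± 11 with DPBS (SD, n = 2 each). Its log2 change with the combination was -1.88 (adjusted p 7.6e-07 in limma's fit of HepG2 alone, 0.15 over 24 libraries). Of 11934 genes at 1 RPKM or more in HepG2, AFP had the pattern most like that of ALB over the 8 libraries (Pearson r 0.998), next to the mitochondrial carrier gene SLC25A33 (0.998). With 8 libraries in 4 groups, 344 genes passed 0.95. AFM, which lies in the same cluster, stayed at or under 0.41 scaled RPKM on average in every HepG2 group.

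TTR (ENSG00000118271, chromosome 18, 29171689 to 29178974) carries thyroid hormone and retinol-binding protein. It had 47.2 and 47.5 scaled RPKM with the combination, 37.2 and 37.5 with GSK-126, 60.6 and 62 with decitabine, and 61.2 and 63.7 with DPBS. GSK-126 libraries were lowest, combination libraries next, and decitabine overlapped DPBS. TTR fell with GSK-126 by 0.73 on the log2 scale (SE 0.15, limma adjusted p 0.0006 over 24 libraries; 1.6e-09 to 0.19 over alternatives, lost with a pseudocount of 0.1) and with the combination by 0.40 (adjusted p 0.028, range over alternatives 9.4e-07 to 0.46; between 0.065 and 0.11 without 1 combination or DPBS library). The combination was also lower than decitabine (-0.37, adjusted p 0.046; 3.9e-06 to 0.52 over alternatives). That last call was lost when any 1 HepG2 library was left out.

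TF (ENSG00000091513, chromosome 3, 133464800 to 133497850) is the iron carrier transferrin. It had 419 and 427 scaled RPKM with the combination, 538 and 554 with GSK-126, 483 and 504 with decitabine, and 646 and 645 with DPBS. The 4 groups were separate, all treated libraries being under DPBS. Log2 changes were -0.61, -0.24 and -0.39 with the combination, GSK-126 and decitabine, each called in HepG2 alone (limma adjusted p 1.5e-05, 0.00091 and 2e-04) and none over 24 libraries (0.49, 0.88 and 0.71). The counted span overlaps the pseudogenes TFP1 and RP11-404G16.2. The second of these had 3.85 and 3.75 scaled RPKM with the combination and 18.6 and 20.1 with DPBS, and its part in the TF value was not tested.

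SERPINA1 (ENSG00000197249, chromosome 14, 94843084 to 94857030), the gene of alpha-1-antitrypsin, which inhibits neutrophil elastase, lay higher with every treatment. It had 1449 and 1458 scaled RPKM with the combination, 1404 and 1464 with GSK-126, 1353 and 1439 with decitabine, and 1232 and 1215 with DPBS. The treated groups overlapped each other, and all 6 of their libraries lay above DPBS. The log2 changes of 0.25, 0.23 and 0.19 were called in HepG2 alone (limma adjusted p 0.0012, 0.0028 and 0.0066), not over 24 libraries (0.86, 0.93 and 0.91). The inhibitor gene SERPINA3 of the same chromosomal cluster rose by 1.25 with the combination (adjusted p 3.2e-13).

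The HDL proteins APOA1 and APOA2 did not move together. APOA1 (ENSG00000118137, chromosome 11, 116706467 to 116708666) had 1775 and 1585 scaled RPKM with the combination, 1437 and 1459 with GSK-126, 1645 and 1554 with decitabine, and 1473 and 1412 with DPBS. GSK-126 overlapped DPBS, while the combination and decitabine lay above it. In HepG2 alone only the combination was called (0.22, limma adjusted p 0.018; 0.88 over 24 libraries). The antisense gene APOA1-AS overlaps APOA1. It had 25.8 to 51.7 scaled RPKM in HepG2, and since the strand setting of the counting is not given, reads of the pair cannot be told apart.

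APOA2 (ENSG00000158874, chromosome 1, 161192082 to 161193421) had 851 and 839 scaled RPKM with the combination, 808 and 818 with GSK-126, 1194 and 1199 with decitabine, and 1125 and 1102 with DPBS. Groups that received GSK-126 lay under DPBS and decitabine alone lay above it. The log2 changes were -0.40, -0.45 and 0.10 (limma adjusted p 2e-05, 2e-05 and 0.0079 in HepG2 alone; 0.73, 0.76 and 0.96 over 24 libraries). Its pattern was close to that of TTR (r 0.927 over the 8 libraries). Outside the members IGF2BP1 (0.9969) and the proliferation marker gene MKI67 (0.9965) were most like it, and 72 genes passed 0.95. The gene AL590714.1 overlaps APOA2 and had 22 to 56 scaled RPKM in HepG2.

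APOB stood on opposite sides of DPBS with single drugs and with both. APOB (ENSG00000084674, chromosome 2, 21224301 to 21266945) is the structural protein of very low and low density lipoprotein. It had 414 and 432 scaled RPKM with the combination, 1025 and 1001 with GSK-126, 1155 and 1190 with decitabine, and 659 and 672 with DPBS. Each single drug lay above DPBS and the combination lay below it, with no overlap between any groups. Means were 0.636, 1.52 and 1.76 times that of DPBS. In HepG2 alone all changes were called (-0.65, 0.61 and 0.82; limma adjusted p 1.4e-05, 2.9e-05 and 1.9e-05), and over 24 libraries none was (0.52, 0.62 and 0.44). The interaction was -2.07 (SE 0.043, adjusted p 8.5e-06 in HepG2 alone; SE 1.17, adjusted p 0.16 over 24 libraries; 8.5e-06 to 0.38 over alternatives). NFAT5 and PRRC2C, a stress-response factor gene and a large RNA-binding protein gene, were most like it (0.999 and 0.998; 116 genes over 0.95).

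APOC3 (ENSG00000110245, chromosome 11, 116700422 to 116703788), which slows the clearance of triglyceride-rich particles, lies 2679 bases from APOA1. It had 126 and 113 scaled RPKM with the combination, 88 and 92 with GSK-126, 162 and 150 with decitabine, and 219 and 210 with DPBS. All treated libraries were under DPBS, with GSK-126 lowest. APOC3 fell by 1.25 on the log2 scale with GSK-126 (SE 0.32, limma adjusted p 0.004 over 24 libraries; 3e-08 to 0.19 over alternatives, lost with a pseudocount of 0.1) and by 0.84 with the combination (adjusted p 0.031; 1.4e-06 to 0.34 over alternatives, and 0.066 to 0.12 without 1 combination or DPBS library). Its change of -0.46 with decitabine was called in HepG2 alone (adjusted p 0.0017), not over 24 libraries (0.25). So APOA1 and APOC3, neighbours in 1 cluster, had log2 changes of 0.22 and -0.84 with the combination.

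APOH (ENSG00000091583, chromosome 17, 64208151 to 64252643) encodes beta-2-glycoprotein I, which binds phospholipid. It had 570 and 620 scaled RPKM with the combination, 920 and 911 with GSK-126, 1108 and 1154 with decitabine, and 1179 and 1190 with DPBS. Like ALB it was lowest with both drugs, and the correlation of ALB and APOH over the 8 libraries was 0.978, the highest of any pair of members. Its log2 changes were -0.99, -0.37 and -0.07 (limma adjusted p 1.1e-05, 0.0008 and 0.25 in HepG2 alone; 0.34, 0.82 and 0.98 over 24 libraries).

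APOE (ENSG00000130203, chromosome 19, 45409011 to 45412650), the ligand by which liver cells take up remnant particles, rose where decitabine was given. It had 469 and 415 scaled RPKM with the combination, 256 and 274 with GSK-126, 403 and 377 with decitabine, and 271 and 257 with DPBS. Combination and decitabine libraries lay above all others, and GSK-126 overlapped DPBS. APOE rose by 0.74 on the log2 scale with the combination (SE 0.18, limma adjusted p 0.0018 over 24 libraries) and by 0.56 with decitabine (adjusted p 0.015; 5.5e-06 to 0.076 over alternatives). The change with GSK-126 was 0.01 (adjusted p 1), and the interaction 0.17 (adjusted p 0.62). The decitabine call was lost without decitabine library A (adjusted p 0.076) and without DPBS library B (0.073).

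**Figure D2:**
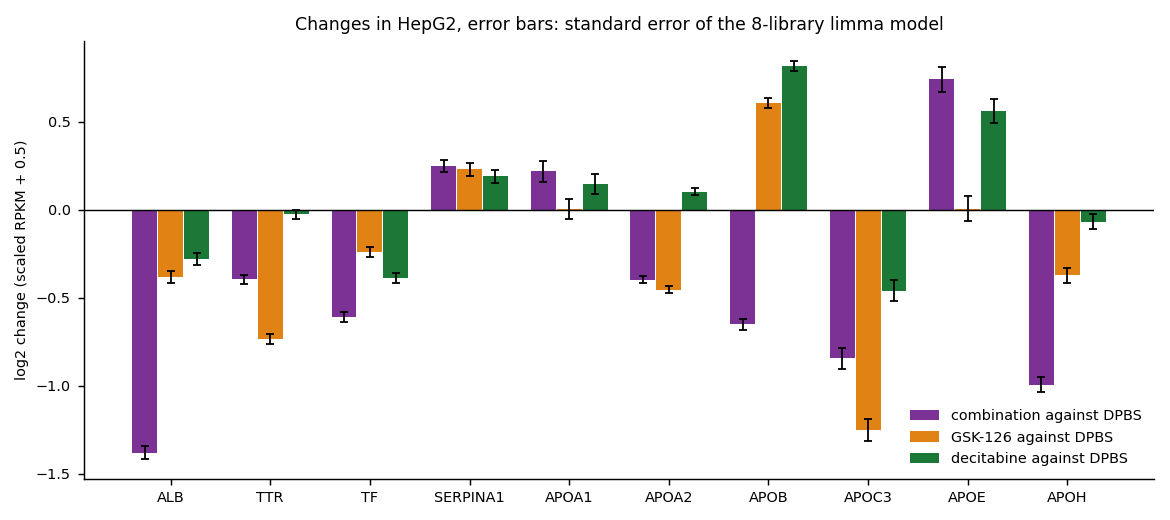
Log2 change of each gene against DPBS in HepG2 for the combination, GSK-126 and decitabine, with the standard error of the limma fit of the 8 HepG2 libraries. ALB is lowest with the combination at -1.38, APOC3 with GSK-126 at -1.25, and APOB is at 0.82 with decitabine and -0.65 with the combination.

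Counted over members and set against DPBS, GSK-126 called 0 higher and 2 lower over 24 libraries (52.6% of all genes called, 31% higher and 21.7% lower) and 2 higher and 6 lower in HepG2 alone (45.8%). Decitabine called 1 higher and 0 lower over 24 libraries (54.2%; 35.9% higher, 18.3% lower), and 4 higher and 3 lower in HepG2 alone (45.8%). Set against decitabine, the combination had 0 members higher and 1 lower over 24 libraries (55.8%; 30% higher, 25.8% lower), and 0 and 7 in HepG2 alone (49%). Set against GSK-126 it had 1 higher, APOE, and 0 lower (65.7%; 36.9% higher, 28.8% lower), and 4 and 4 in HepG2 alone (61.7%). For the interaction 0 members were called over 24 libraries, and 0 had an unadjusted p under 0.05 in limma (4 were called with voom), with 53% of genes called (25.1% higher, 27.9% lower). In HepG2 alone 2 were positive, APOC3 and TTR, and 4 negative, ALB, APOB, APOH and SERPINA1 (45.8%). Median log2 changes over the members were -0.50, -0.31 and 0.04 with the combination, GSK-126 and decitabine, beside 0.08, 0.03 and 0.07 over all tested genes.

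In SNU398 and SNU475 the 9 members other than APOE stood at 0% to 0.869% of their HepG2 DPBS mean, and APOE at 0.172% to 5.72%. ALB had 0.846 and 4.8 scaled RPKM in SNU398 with the combination, 1.67 and 4.6 with GSK-126, 22.1 and 0.369 with decitabine, and 2.41 and 0.34 with DPBS. In SNU475 it had 5.73 and 0.957 with the combination, 1.17 and 3.06 with GSK-126, 1.37 and 0.225 with decitabine, and 24.1 and 1.09 with DPBS. In both lines the widest gaps lay between libraries of 1 group, and no treatment was apart from DPBS. The members took 0.00059% to 0.0396% of gene reads in these 16 libraries. In bulk RNA, fewer cells that make a transcript and less of it per cell cannot be told apart.

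With DPBS all 10 members were lower in SNU398 than in HepG2, by log2 changes of -6.90 to -11.77 (76.6% of all genes called, 36.5% lower), and all 10 lower in SNU475, by -6.55 to -9.77 (79.4%, 36.9% lower). By share of the HepG2 DPBS mean, APOE was the highest member in all 4 of these libraries. The TTR change of -6.90 in SNU398 rests on the pseudocount, which far exceeds its level there (-11.33 with voom). The sizes in SNU475 rest on unlike libraries, as ALB had 24.1 and 1.09 scaled RPKM with DPBS and its change was -7.80 without DPBS library B. Once a share set by AHSG was taken off, ALB was at 0 in both of these libraries. The change of -13.42 found then is set by the pseudocount and does not measure a size. All 10 members were called lower in both lines under each of the alternatives run. Harvest day differs for SNU475, so line and day cannot be told apart there. HNF4A, a master regulator of hepatocyte genes, had 0.0546 and 0 scaled RPKM in SNU398 (21 and 0 reads), 0.432 and 0.0509 in SNU475, and 74.7 and 72.9 in HepG2, all with DPBS. In both SNU lines library A was the higher, as it was for ALB. Mesenchymal markers were mixed, with 5 of 9 higher and 4 lower in SNU398 than in HepG2, and 7 higher and 1 lower in SNU475. The filament gene VIM stood at 327 scaled RPKM in SNU398 and 176 in SNU475, against 0.18 in HepG2, and the collagen gene COL3A1 at 284 and 241, against 0.109. The fibronectin gene FN1 was lower, at 2.2 in SNU398 and 257 in SNU475, against 303 in HepG2. The sum of the 9 was 613 to 623 in SNU398 and 734 to 749 in SNU475, against 316 to 319 in HepG2, where most of it was FN1. The part of these markers in the differences between lines was not tested.

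In the 2 SNU libraries with the most ALB, the 9 members other than APOE stood at a like share of their HepG2 level. In SNU398 decitabine library A they lay between 0.385% and 0.492% of the HepG2 DPBS mean, with a median of 0.404%. In SNU475 DPBS library A they lay between 0.233% and 0.869%, with a median of 0.467%. The partner libraries had medians of 0.00675% (SNU398 decitabine B) and 0.0393% (SNU475 DPBS B), and the other 12 SNU libraries of 0.00506% to 0.114%. In these 2 groups the members of a library thus lay closer together than the libraries did, save APOC3, listed at 0 in SNU398 decitabine B. The spread was wider in some other libraries, as in SNU475 decitabine B, between 0.00362% and 0.133%, and in 4 SNU398 libraries at least 1 member was listed at 0. AHSG, another abundant liver plasma protein gene, was at 0.421% in SNU398 decitabine library A and 0.538% in SNU475 DPBS library A, and AFP at 0.405% and 0.454%. A further count took 21 plasma protein genes at 20 RPKM or more in HepG2, AHSG and AFP among them. In the first of these libraries 19 lay at or under 2 times the members' median, and in the second 13. No lower bound was set, and the medians of the 21 genes were 0.405% and 0.78%. Against the HepG2 GSK-126 means in place of DPBS, the 9 members of SNU475 DPBS library A lay closer together, between 0.466% and 0.636%, and those of SNU398 decitabine library A further apart, between 0.262% and 0.918%. Whether these RNAs came from the SNU cells themselves was not tested.

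**Figure D3:**
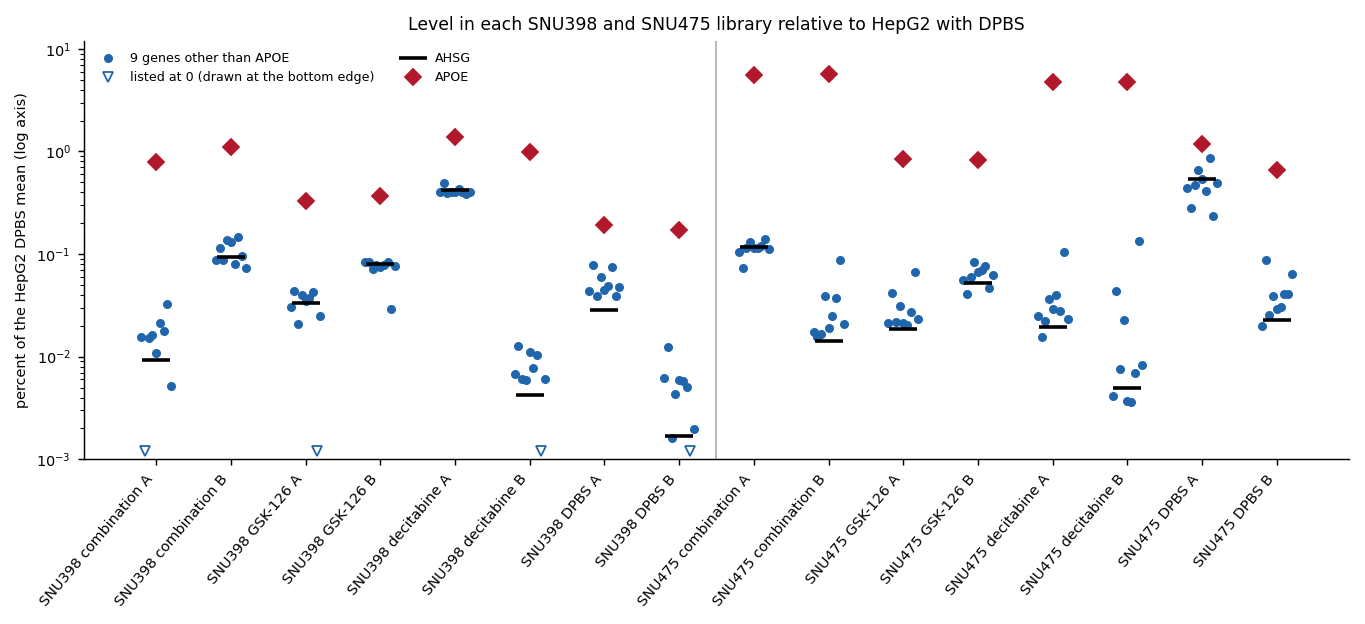
Level of each member in the 16 SNU398 and SNU475 libraries as a percent of its HepG2 DPBS mean on a log axis, with the plasma protein gene AHSG as a bar and values of 0 drawn at the bottom edge. The 9 genes other than APOE have medians of 0.404% in SNU398 decitabine A and 0.467% in SNU475 DPBS A, above all other libraries, while APOE stands above them in all 16.

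These libraries set what a test can show for the 9 genes. TTR rested on 0 to 40 reads per SNU library, and the 9 members together on 146 to 14215. None of the 9 was called for any drug in either line over 24 libraries. For GSK-126 in SNU475, and for the combination against decitabine in both lines, 0 of the 10 members were called, 0 had an unadjusted p under 0.05 in limma, and voom called 0. With 1 library left out, its partner stands alone, the spread comes from the other groups, and the lone library is assumed to vary like them. Without SNU398 decitabine library B, 9 members were called with decitabine in SNU398 (31.7% of all genes), and without library A 1 was (32%). The interaction there called 5 without library B (37.6% of all genes). Without SNU475 DPBS library B, 5 were called with the combination (50% of all genes), 6 with GSK-126 (44.6%) and 8 with decitabine (46.2%) in SNU475, and without library A the counts were 1, 0 and 1 (48.8%, 43.2% and 44.8%). The interaction in SNU475 called 6 without DPBS library B (33% of all genes) and 0 without library A (31.4%). These counts turn on which library was kept, and the members then share that library. The share of AHSG in each SNU library, multiplied by the HepG2 DPBS mean of each gene, was then taken off that gene. Values below 0 were set to 0, and HepG2 values were left as they were. The subtraction was a step added after the data were seen. After it ALB was called lower with GSK-126 (-0.77, limma adjusted p 0.038) and with decitabine (-0.84, 0.034) in SNU398, APOB lower with the combination (-1.15, 0.041) and decitabine (-1.27, 0.027) in SNU475, and APOC3 higher with decitabine (0.48, 0.00055) in SNU475. Values after that step are small differences of small numbers. In DPBS libraries A and B, ALB then had 0.864 and 0.248 scaled RPKM in SNU398. In SNU475 APOB had 2.2 and 0.117, and APOC3 0 and 0.038. The ALB and APOB calls thus lean on DPBS library A, and the APOC3 call follows a DPBS library A taken to 0.

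APOE differed from the rest. Its share of the HepG2 DPBS level ran from 0.172% to 1.38% among SNU398 libraries and from 0.655% to 5.72% among those of SNU475, or 2.5 to 623 times the median share of the other members in the same library. It rested on 65 to 502 reads per SNU398 library and 201 to 1619 per SNU475 library. In SNU398 it had 2.08 and 2.92 scaled RPKM with the combination, 0.863 and 0.968 with GSK-126, 3.64 and 2.64 with decitabine, and 0.505 and 0.453 with DPBS. Every treated library lay above both DPBS libraries. APOE rose by 1.60 on the log2 scale with the combination (SE 0.18, limma adjusted p 3e-06), by 0.53 with GSK-126 (adjusted p 0.02) and by 1.88 with decitabine (adjusted p 1e-06), where 47.3%, 52.4% and 38.8% of all genes were called (28.9%, 30% and 23.4% higher). The call with GSK-126 was lost with a pseudocount of 1, with quantile normalization, with voom, and without GSK-126 library B or either DPBS library (adjusted p up to 0.25). Set against decitabine, the combination gave no call (-0.28, adjusted p 0.32; 20.5% of genes called, 12.5% higher and 8.07% lower), and was above GSK-126 by 1.07 (adjusted p 0.00013; 50.1% called, 26.6% higher). The interaction was negative (-0.81, adjusted p 0.017; 41.3% called, 22.8% lower). That call was lost with voom and without combination A, GSK-126 B, decitabine A or DPBS B (adjusted p 0.001 to 0.19 over alternatives).

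In SNU475 APOE had 14.8 and 15.1 scaled RPKM with the combination, 2.22 and 2.16 with GSK-126, 12.4 and 12.5 with decitabine, and 3.08 and 1.73 with DPBS. Combination and decitabine libraries lay far above the others, and GSK-126 lay between the DPBS libraries. APOE rose by 2.45 with the combination (SE 0.18, limma adjusted p 1.9e-08; 54.9% of genes called, 25.3% higher and 29.6% lower) and by 2.20 with decitabine (adjusted p 8.2e-08; 51.4%, 24.2% higher). With GSK-126 the change was -0.07 (adjusted p 0.79; 50% called, 21.5% higher and 28.5% lower). Its sign differed between settings, with a call higher after the AHSG-based subtraction (0.26, limma adjusted p 0.012) and a call lower without DPBS library B (-0.41, 0.042), and no call without DPBS library A (0.27, 0.19). Against decitabine the combination was not called (0.25, adjusted p 0.4; 18.3%, 7.39% higher and 10.9% lower), and was above GSK-126 by 2.52 (adjusted p 4.3e-08; 35.9%, 18.2% higher). The interaction was 0.32 (adjusted p 0.36; 36.4%, 19.7% higher and 16.6% lower). With DPBS, APOE stood higher in SNU475 than in SNU398 (1.53, adjusted p 1.1e-06; 78.1% of genes called, 40% higher).

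Taking off the AHSG-based share narrowed the gap between APOE libraries A and B in all 4 SNU398 groups and in SNU475 with DPBS. It widened the gap in the other 3 SNU475 groups, to 14.5 and 15.1 scaled RPKM with the combination and 2.17 and 2.02 with GSK-126. After it APOE had 2.53 and 2.62 scaled RPKM in SNU398 with decitabine against 0.43 and 0.449 with DPBS, and 1.66 and 1.67 in SNU475 with DPBS. The changes then were 1.71 with decitabine and 1.60 with the combination in SNU398, and 2.58 and 2.82 in SNU475. The effect of the combination exceeded that in HepG2 by 0.86 in SNU398 (adjusted p 0.0083; 58.1% of genes called, 26.2% higher) and by 1.71 in SNU475 (adjusted p 2.6e-05; 64.6%, 24.8% higher), on the measured values and not those after subtraction. With a pseudocount of 1 the SNU398 difference was 0.49 (adjusted p 0.063). APOE averaged 2.5 scaled RPKM with the combination in SNU398 and 15 in SNU475, against 442 in HepG2.

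**Figure D4:**
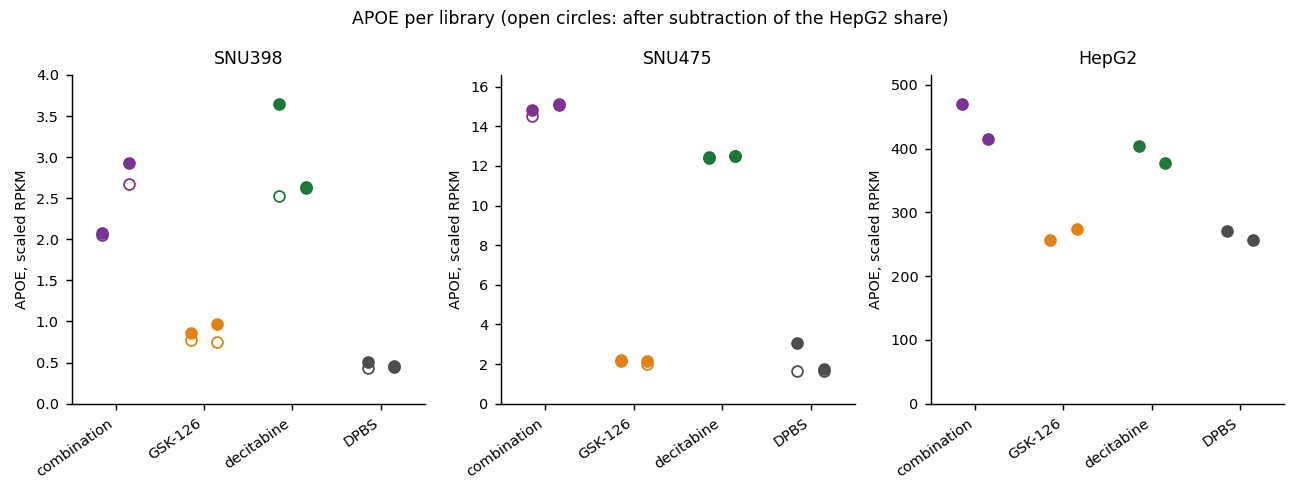
APOE in scaled RPKM per library by treatment in SNU398, SNU475 and HepG2, each panel with its own axis from 0, filled circles as measured and open circles after the AHSG-based share was taken off. Decitabine and combination libraries lie above DPBS in all 3 lines, at 12.4 to 15.1 in SNU475 against 1.73 and 3.08.

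APOC1, an apolipoprotein gene that starts 4854 bases beyond APOE, followed it in SNU475. It had 12.4 ± 0.47 scaled RPKM with the combination, 2.93 ± 0.29 with GSK-126, 11.2 ± 0.078 with decitabine and 4.99 ± 0.24 with DPBS (SD, n = 2 each). It rose by 1.24 with the combination and by 1.09 with decitabine and fell by 0.68 with GSK-126 (limma adjusted p 9.8e-11, 5.9e-10 and 1.1e-07). In HepG2 it fell in all 3 comparisons (-0.58, -0.98 and -0.36), where APOE rose with the combination and decitabine. In SNU398, where APOE also rose with both, APOC1 lay only a little above DPBS. After the AHSG-based subtraction it had 2.29 and 2.51 scaled RPKM there with the combination and 2.29 and 2.70 with decitabine. With GSK-126 it had 1.54 and 1.44, and with DPBS 2.19 and 2.23. TOMM40, the mitochondrial import gene 2065 bases below APOE, changed in HepG2 by 0.22 with the combination and -0.32 with GSK-126 (adjusted p 0.00012 and 3.3e-06), and was not called with decitabine (0.04).

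The other genes of the pathway were read from 4 lists in HepG2, over 24 libraries. Their counts, and those of the neighbours and markers below, are to be read beside the shares of all tested genes called. These were 66.5% with the combination (40.6% higher, 25.9% lower), 52.6% with GSK-126 (31% and 21.7%) and 54.2% with decitabine (35.9% and 18.3%). Of 9 other apolipoproteins tested (of 12), 3 were higher and 6 lower with the combination, 2 and 6 with GSK-126, and 4 and 3 with decitabine. The medians were -0.58, -0.72 and -0.02. The trypanolytic factor gene APOL1 fell most (-1.70, -2.61 and -1.96, limma adjusted p 9.5e-11, 1.4e-12 and 5.5e-11). APOA4, next to APOC3, rose with the combination (1.18) and decitabine (0.73) and fell with GSK-126 (-0.38). The apolipoprotein gene SAA4 fell by 1.29 with GSK-126. APOM, which carries sphingosine phosphate on HDL, fell by 0.83 with the combination.

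Of 30 other plasma and transport proteins tested (of 34), 10 were higher and 4 lower with the combination, 7 and 2 with GSK-126 and 12 and 1 with decitabine. In HepG2 alone these counts were 12 and 12, 13 and 8, and 16 and 9 (62.6%, 45.8% and 45.8% of all genes called). The copper carrier gene CP fell in all 3 (-1.60, -1.81 and -1.03). SERPING1, the C1 inhibitor gene, rose by 1.92 with the combination, and HP, which binds free haemoglobin, rose by 1.12 with the combination and fell by 0.88 with GSK-126. PLG, the plasminogen gene, rose with GSK-126 (1.82) and decitabine (1.24), and its interaction of -2.12 (adjusted p 1.2e-10) had the sign of that of APOB. SERPINC1, the antithrombin gene, fell by 0.85 with the combination.

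Of 22 genes of lipoprotein assembly, remodelling and uptake tested (of 25), 11 were higher and 7 lower with the combination, 6 and 9 with GSK-126, and 11 and 4 with decitabine. MTTP, which loads lipid onto APOB, had 21.8 ± 0.23 scaled RPKM with the combination, 30.9 ± 0.71 with GSK-126, 30.3 ± 0.26 with decitabine and 39.7 ± 1.3 with DPBS (SD, n = 2 each). It fell with the combination (-0.85, limma adjusted p 1.8e-05) and decitabine (-0.39, adjusted p 0.015) and with GSK-126 (-0.36, adjusted p 0.023). APOB stood above DPBS with either single drug and under it with both. SAR1B, needed for export of large lipoproteins, fell by 0.52 with the combination. PLTP, which transfers phospholipid between particles, rose by 0.92 with the combination and fell by 0.65 with GSK-126.

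Of 25 regulators of liver secretory genes, 8 were higher and 9 lower with the combination. With GSK-126 18 were higher and 3 lower, and with decitabine 10 and 0. For the interaction 2 were positive and 18 negative (53% of all genes called, 25.1% higher and 27.9% lower). HNF4A had 68 ± 2.3 scaled RPKM with the combination, 76.5 ± 1.4 with GSK-126, 72.9 ± 0.6 with decitabine and 73.8 ± 1.2 with DPBS (SD, n = 2 each), with no call over 24 libraries. The stress-responsive factor gene ATF5 rose in all 3 (2.10, 1.49 and 2.21), and CEBPB, an acute-phase regulator, with the combination (1.06), GSK-126 (2.16) and decitabine (0.42). The bile acid receptor gene NR1H4 (-0.86) and PROX1, a liver development factor gene (-0.80), fell with the combination. Of 29 chromosomal neighbours tested (of 36), 16 were higher and 7 lower with the combination, 11 and 8 with GSK-126, and 13 and 4 with decitabine. Of 9 mesenchymal markers, 6 were higher and 0 lower with the combination, led by VIM (2.06), which stood at 2.4 scaled RPKM against 0.18 with DPBS. The sum of the 9 was 309 to 310, against 316 to 319 with DPBS. Most of it was FN1, at 268 in both combination libraries and at 304 and 302 with DPBS, so the sum does not follow the other markers. Of 8 immune and endothelial markers (5 tested), 2 were higher and 0 lower with the combination, 1 and 2 with GSK-126 and 2 and 0 with decitabine. Their sum, nearly all from the lysozyme gene LYZ, was 343 to 352 scaled RPKM with the combination, 173 to 177 with GSK-126, 438 to 440 with decitabine and 438 to 452 with DPBS, and 3 of the 8 were listed at 0 with DPBS. The part of either marker set in the members' changes was not tested.

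**Figure D5:**
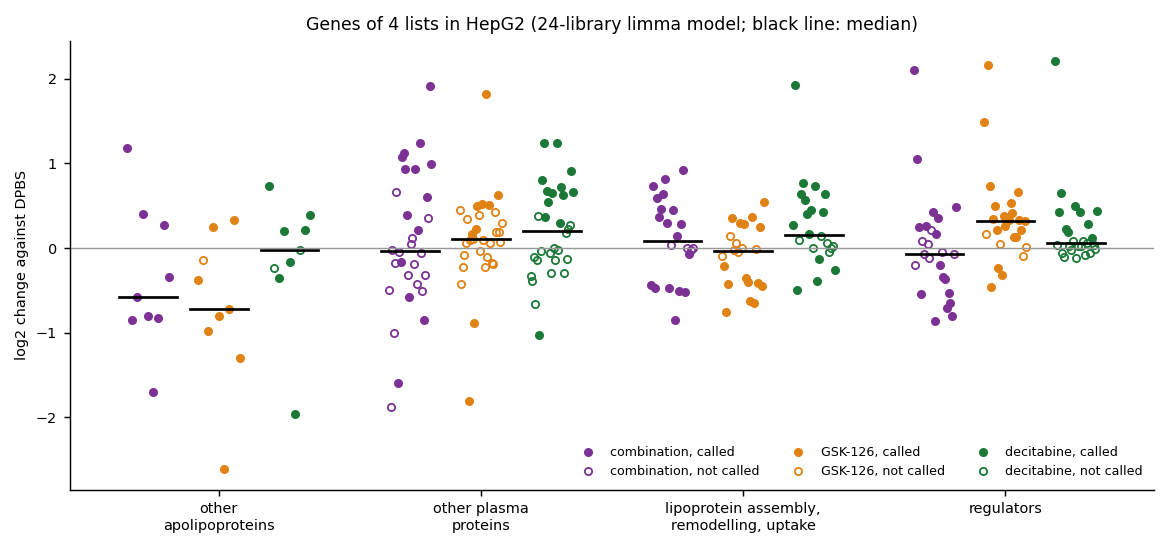
Log2 change against DPBS in HepG2 (24-library limma fit) of the tested genes of 4 lists, with filled points for called genes, open points for genes not called and black lines for medians. Other apolipoproteins have medians of -0.58 with the combination and -0.72 with GSK-126, and the regulators lie mostly above 0 with GSK-126.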

How the data were processed

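Total RNA was measured in 24 libraries. Per the labels' protocols these came from a stranded kit after removal of ribosomal RNA, as single reads of 75 bases. Per the submitters' processing notes, reads were aligned to hg19 with HISAT2 and counted with featureCounts, versions and strand setting not given in the sources used here. The authors deposited RPKM per gene to 3 decimals. Read numbers recovered from the RPKM steps were whole within 0.15 reads for 100% of the values checked.

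RPKM was scaled by median-of-ratios factors over 8211 genes. Genes with at least 0.5 RPKM in at least 2 libraries were tested (19377) as log2(scaled RPKM + 0.5), which understates the changes of low genes. limma 3.58.1 (R 4.3.3) fitted 12 group means to 24 libraries (12 residual degrees of freedom; trend, robust), with two-sided p-values adjusted by Benjamini-Hochberg over all genes. The fit of 1 line alone had 4 residual degrees of freedom. The interaction is the combination's change less those of both single drugs. The script was tested on simulated data. Comparisons within a line share DPBS libraries. Alternatives were other pseudocounts (0.1, 1), no scaling, quantile normalization, no filter, voom on the recovered reads, 1 line alone, a replicate block and leaving out each library.

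The members and lists were chosen with earlier results of these data known. Named beside the members were their chromosomal neighbours, per list and comparison up to 3 highest and 3 lowest called genes, and the 2 genes most alike. HNF4A and the values of other named genes in further comparisons were chosen after their values were seen. The AHSG-based subtraction and the second HepG2 baseline for shares were added after the data were seen. Some genes of the lists are not reported here by name.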

Additional observations from a re-analysis of the deposited data

Results flagged for a closer look

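APOE was picked out by a test of the difference between lines. The log2 effect of the combination was larger in SNU398 than in HepG2 by 0.86 and larger in SNU475 than in HepG2 by 1.71. The changes behind these were 1.60 in SNU398 and 2.45 in SNU475, against 0.74 in HepG2, with both combination libraries above both DPBS libraries in each line. APOE was at 0.479 scaled RPKM on average with DPBS in SNU398 and 2.4 in SNU475, against 264 in HepG2, so the pseudocount of 0.5 draws the SNU398 change towards 0 more than the others. Over the alternatives the difference ran between 0.49 and 1.65 for SNU398 and between 1.37 and 2.08 for SNU475. With a pseudocount of 1 the SNU398 difference, then 0.49, was no longer called by limma (adjusted p 0.063, against 0.0083; 8.7e-06 to 0.063 over alternatives).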

How the results depend on the processing

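The counts of members called depended on the choice of fit and, in the SNU lines, on single libraries. For HepG2, in the order combination, GSK-126 and decitabine against DPBS, combination against decitabine, combination against GSK-126, and interaction, the fit of 24 libraries called 3, 2, 1, 1, 1 and 0 members (52.6% to 66.5% of all genes), HepG2 alone 10, 8, 7, 7, 8 and 6 (45.8% to 62.6%), voom on recovered reads 8, 5, 4, 7, 6 and 4 (47.4% to 66.2%), and the AHSG-based subtraction 6, 3, 3, 7, 7 and 3 (53% to 66.7%). The subtraction left HepG2 values as they were, so these counts differ only through the SNU libraries that share the fit. A pseudocount of 0.1 called 1, 0, 1, 0, 1 and 0 (51.4% to 66.8%). A pseudocount of 1 called 2 for the combination against GSK-126 and 2 for the interaction. Without the filter on low values the combination called 1 against DPBS and 0 against decitabine, and without scaling 0 against decitabine. Leaving out 1 library gave 1 to 3 for the combination, 0 to 1 for decitabine and 0 for the combination against decitabine (46.5% to 66.7% of all genes over the HepG2 comparisons).

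In SNU398, GSK-126 called 0 members with a pseudocount of 1, quantile normalization or voom, and voom called 0 for the interaction. After subtraction the counts were 2 for GSK-126 and 2 for decitabine in SNU398, and 2, 1, 3 and 1 in SNU475 for the combination, GSK-126, decitabine and the combination against decitabine, and 2 between the SNU lines with DPBS (18.6% to 78% of all genes). Leaving out 1 library gave 0 to 1 (GSK-126), 1 to 9 (decitabine), 0 to 2 (combination against decitabine) and 0 to 5 (interaction) in SNU398, 1 to 5 (combination), 0 to 6 (GSK-126), 1 to 8 (decitabine) and 0 to 6 (interaction) in SNU475, and 1 to 9 between the SNU lines, where the shares of all genes called moved far less: 47.1% to 52.2%, 31.4% to 38.6%, 13.1% to 20% and 37.0% to 38.1% in SNU398, 48.8% to 54.6%, 43% to 50%, 44.4% to 51.4% and 31.2% to 33.6% in SNU475, and 74.6% to 78.0%. For the combination effect against HepG2, a pseudocount of 1 gave 2 in SNU398 and 2 in SNU475, subtraction 4 and 5, and leaving out 1 library 1 to 3 and 1 to 2 (54% to 65% of all genes in these settings).

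Some values changed direction or came to 0.00. With quantile normalization the log2 values were 0.00 for ALB and 0.05 for TF (GSK-126), 0.00 for ALB and 0.03 for TTR (decitabine), -0.00 for SERPINA1 (combination against GSK-126), and -0.13 for TF and -0.14 for APOA1 (interaction). Without scaling they were -0.04 for APOA1 and -0.04 for APOE (GSK-126), and 0.05 for APOA2 (interaction). Leaving out 1 HepG2 library turned APOA1 (range -0.02 to 0.04) and APOE (-0.04 to 0.05) with GSK-126, TTR with decitabine (-0.05 to 0.00), APOA1 with the combination against decitabine (-0.01 to 0.15), SERPINA1 with the combination against GSK-126 (-0.01 to 0.05), and the interactions of TF (-0.01 to 0.05) and APOA1 (-0.02 to 0.15). In SNU475, APOE was at 0.26 with GSK-126 and -0.02 for the interaction after subtraction, and without 1 library it ran from -0.41 to 0.27 and from -0.02 to 0.67, the highest GSK-126 value and the lowest interaction being those without DPBS library A. The cause was not tested.

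Replicate letters showed no steady pairing, and whether they pair the samples was not settled. Deviations of same-letter libraries correlated from -0.116 to 0.118 in HepG2, -0.271 to 0.41 in SNU398 and -0.177 to 0.303 in SNU475. In these lines 1, 2 and 2 of 6 pairs of groups were above 0.1, the highest being SNU398 GSK-126 with DPBS (0.41). Groups of different lines reached a like value, as SNU398 decitabine with SNU475 DPBS (0.406). With the letter as a replicate block, 2 members were called for the combination effect in SNU398 against HepG2, and no other count changed. Depth limits TTR and the other members in the SNU lines, where some rest on 0 reads.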

Other observations

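Over all 24 libraries the genes most like 7 of the members were other liver plasma protein genes, AHSG for ALB (r 0.999), APOA1 (0.998) and APOH (0.998), RBP4 for TF (0.999) and APOA2 (0.998), and ITIH2 for SERPINA1 (0.998) and APOB (0.997). For TTR it was GJB1, a gap junction gene (0.999), and for APOC3 LYZ (0.997). For APOE they were COL16A1, a collagen gene, and ICAM4, an adhesion gene (0.988 each). The correlations mostly set HepG2 apart from the other lines and 514 genes passed 0.95 for ALB.

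Over the 8 HepG2 libraries TF and APOE ran most opposite (r -0.895), followed by TF and APOA1 (-0.839) and SERPINA1 and APOC3 (-0.832), while APOA1 and APOE ran together (0.948), as did TTR and APOC3 (0.934). These 8 points share 4 treatments.

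Genes of the lipoprotein list moved in the SNU lines too. In SNU475 PLTP rose by 1.64 with the combination and by 1.48 with decitabine, CETP, which exchanges cholesteryl ester, rose by 1.16 with the combination, and LCAT, which esterifies cholesterol on HDL, rose by 0.99 with the combination and 0.88 with decitabine. In SNU398 LRP1 rose by 1.32 and VLDLR by 1.20 with GSK-126. CLU, a secreted chaperone also called apolipoprotein J, rose with every treatment in both SNU lines (0.23 to 0.95). All of these passed limma's test over 24 libraries.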
